A study of Danio rerio with 4 samples.

Results

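The genes described are 9 genes of programmed cell death and the p53 response, measured in the ovary of adult zebrafish. They were taken by name: pmaip1, bbc3, baxa, bcl2a, diablob, birc5a, fadd, mdm2 and rrm2b, out of 35066 rows with an Ensembl gene identifier. A row was taken where its symbol equals one of these names, ignoring case, or equals it without the final paralog letter, and 10 rows met this. The genes birc5a and baxa were found as BIRC5 and BAX in the table of symbols. The tenth row, named BCL2 without a letter, was kept apart from bcl2a: it was at 0.0107 FPKM in the control, 0.0305 with DBP and 0.0209 with both compounds, and listed at 0 with DiBP.

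All fish were wild-type females of the AB strain, 5 months old. The control library came from unexposed fish. The DBP library came from fish exposed to dibutyl phthalate (DBP) for 30 days, the DiBP library from fish exposed to diisobutyl phthalate (DiBP), an isomer with branched butyl chains, and the combined library from fish exposed to both. Each group has 1 library of whole-ovary RNA. Differences therefore have no replicates, error or p-value behind them, and every statement compares 4 libraries. The sources used here give neither the doses nor how many fish gave each library. The column headings in the DiBP and combined tables differ from the sample titles, so these libraries are named by the sample under which each table was deposited.

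Cells that are to die by the intrinsic route open pores in the outer membrane of their mitochondria. BAX forms these pores, BCL2 and its relatives hold it back, and the BH3-only proteins, among them Noxa (pmaip1) and Puma (bbc3), release it. Smac (diablo) and cytochrome c then leave the mitochondrion, and caspases are set free from their inhibitors and activated. The transcription factor p53 switches on several of these genes after DNA damage and is itself kept low by Mdm2. In the ovary, apoptosis of granulosa cells accompanies the loss of follicles, called atresia.

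Values are FPKM, fragments per kilobase of transcript scaled to the size of the library, so levels can be compared between genes. The summed FPKM ran from 512635 in the combined library to 598063 in the DiBP library, and the absolute depth is unknown. Differences are given as log2 ratios of FPKM + 1, on which 2-fold is a difference of 1, and this scale understates the change of low genes. They were set beside 13859 measured loci, whose 4 values average 1 FPKM or more. Of the 9 genes, 8 were measured, and bbc3 lay below that limit. The share of all measured loci past the same limit is given as the background.

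Of the 8 measured genes, pmaip1 and diablob stood at least 2-fold above the control in both single-exposure libraries, and rrm2b stood at least 2-fold below it with DiBP. In the combined library none of the 8 was 2-fold from the control. The other measured genes, birc5a, baxa, bcl2a, fadd and mdm2, stayed within 2-fold of the control in all 3 exposed libraries. In the DBP library 2 of 8 were at least 2-fold higher, where 4.81% of all loci were, and 0 were lower, where 3.31% were. In the DiBP library 2 of 8 were higher against 7.25% of all loci, and 1 was lower against 7.04%. In the combined library 0 were past the limit, where 3.48% of all loci were higher and 3.23% lower. At 1.5-fold, birc5a joined the genes higher with DBP, making 3 of 8 against 12.2% of all loci, with 0 lower against 10.4%. In that library mdm2, at -0.56, was just short of 1.5-fold lower and passed the limit under each other pseudocount or scaling tried, at -0.61 to -0.63. In the DiBP library the counts stayed at 2 higher and 1 lower, against 15.7% and 18.1% of all loci. In the combined library diablob was 1.5-fold higher, where 7.78% of all loci were, and bcl2a and fadd were lower, where 10% were. With so few genes these counts describe the genes and do not set them apart from other loci.

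**Figure D1:**
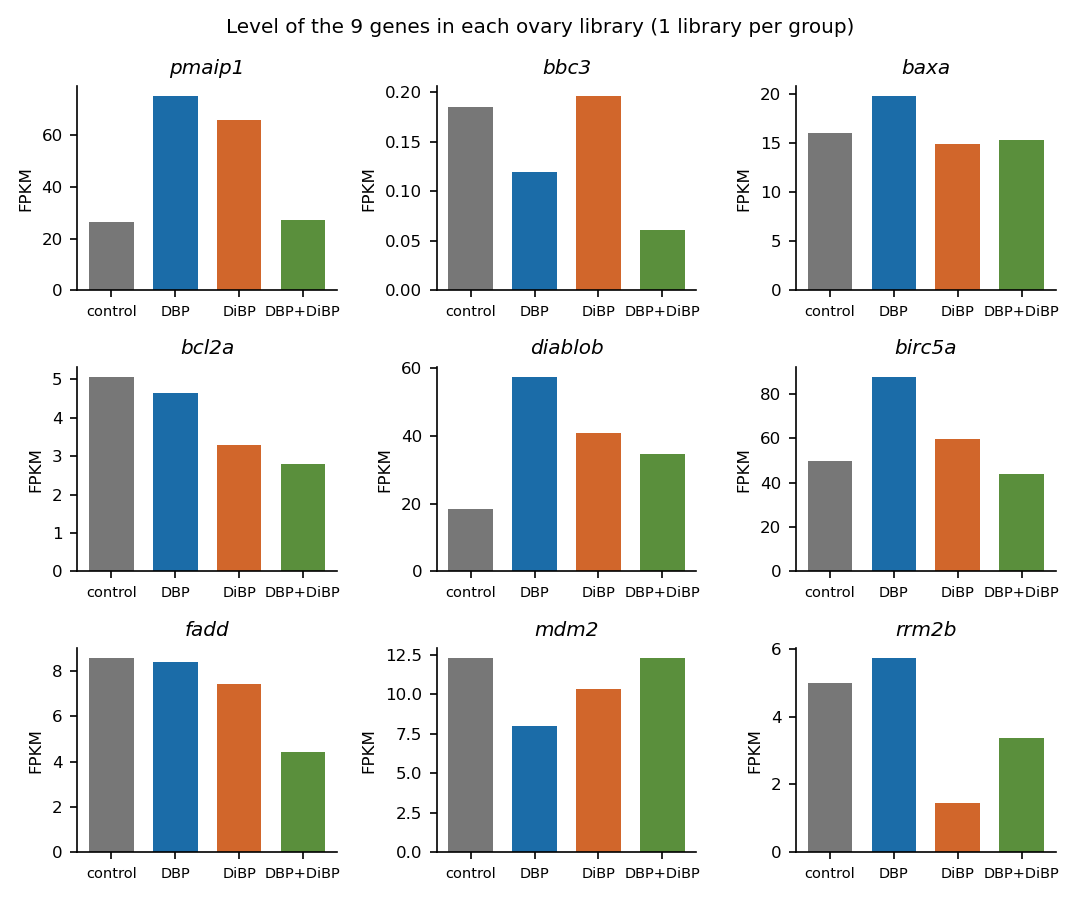
Bars give the FPKM of each of the 9 genes in each library (DBP+DiBP is the combined one), 1 library per bar, on linear axes that start at 0 and differ between panels. The pmaip1 bars stand at 75.3 and 66.0 FPKM in the single-exposure libraries and at 26.4 and 27.3 in the control and combined libraries.

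The BH3-only gene pmaip1 encodes Noxa, which in mammals neutralises the survival protein MCL1. It was at 26.4 FPKM in the control, 75.3 with DBP, 66.0 with DiBP and 27.3 with both compounds. The single-exposure libraries were both high, and the combined library was close to the control. The log2 ratio to control was 1.48 with DBP, where 2.25% of all measured loci had a higher ratio. It was 1.29 with DiBP, where 4.41% of loci had a higher ratio, and 0.05 with both. The combined library lay below the DBP library by a log2 ratio of -1.43 and below the DiBP library by -1.24. In a bulk ovary library, a smaller share of cells of a type and less RNA per cell cannot be told apart.

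The other p53-induced BH3-only gene, bbc3 (Puma), was barely detected. It was at 0.185 FPKM in the control, 0.119 with DBP, 0.197 with DiBP and 0.0605 with both. At these levels no order of the libraries can be read.

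Of the 12 BH3-only loci found, 6 were measured, and their median log2 ratio was 0.25 with DBP, 0.21 with DiBP and -0.02 with both, against 0.01, -0.06 and -0.08 over all loci. At least 2-fold differences were found for pmaip1 and, with DiBP, for bmf1, whose mammalian counterpart is linked to the cytoskeleton. The level of bmf1 was 4.17 FPKM in the control, 2.26 with DBP, 1.09 with DiBP and 3.87 with both, so it was low in the libraries where pmaip1 was high. The gene bida, which carries the death-receptor signal to mitochondria, was at 24.7, 31.2, 32.7 and 29.2 FPKM in the same order, with log2 ratios of 0.33, 0.39 and 0.23.

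The pore-forming gene baxa was steady, at 16.0 FPKM in the control, 19.8 with DBP, 14.9 with DiBP and 15.4 with both. Its log2 ratios to control were 0.29, -0.10 and -0.05. The highest library was 1.33 times the lowest, the narrowest range of the 9 genes. Its paralog baxb was at 12.7 FPKM in the control, 22.8 with DBP, 25.1 with DiBP and 16.7 with both, with log2 ratios of 0.80, 0.94 and 0.37. Thus baxa was the higher of the pair in the control, whereas baxb was higher in each exposed library. Of 4 measured loci of bax and bok, 2 were at least 1.5-fold higher with DBP and 1 with DiBP, where 12.2% and 15.7% of all loci were.

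The survival gene bcl2a, whose protein binds and restrains Bax, was at 5.07 FPKM in the control, 4.65 with DBP, 3.29 with DiBP and 2.79 with both. All 3 exposed libraries were below the control, and the combined library was the lowest. The log2 ratios were -0.10, -0.50 and -0.68. In the combined library 7.92% of all measured loci had a lower ratio than bcl2a.

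The ratio of the FPKM of baxa to that of bcl2a, a customary index of the balance between death and survival genes, was 3.15 in the control. It was 4.27 with DBP, 4.53 with DiBP and 5.50 with both. As baxa varied little, the order of this ratio follows bcl2a, and it carries no error. It covers 1 gene of each kind and leaves out the more abundant survival genes. The 6 pro-survival loci summed to 943 FPKM in the control, 1031 with DBP, 1502 with DiBP and 1016 with both, so the ratio does not give the balance over all of them.

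The BCL2 gene with the highest level was mcl1a, the target of Noxa in mammals, at 814 FPKM in the control, 860 with DBP, 1345 with DiBP and 905 with both. Its paralog mcl1b was at 12.3, 18.3, 25.2 and 12.8 FPKM in that order. Their log2 ratios with DiBP were 0.72 and 0.97, the only pro-survival loci of 5 measured that were at least 1.5-fold above the control there, as were 15.7% of all loci. In the combined library bcl2a was 1.5-fold lower and the other 4 were within 1.5-fold, where 10% of all loci were lower and 7.78% higher. BCL2L1 (Bcl-xL) was at 16.2 FPKM in the control and 12.3 in the combined library, and bcl2l10 was at 95.8 and 83.3.

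**Figure D2:**
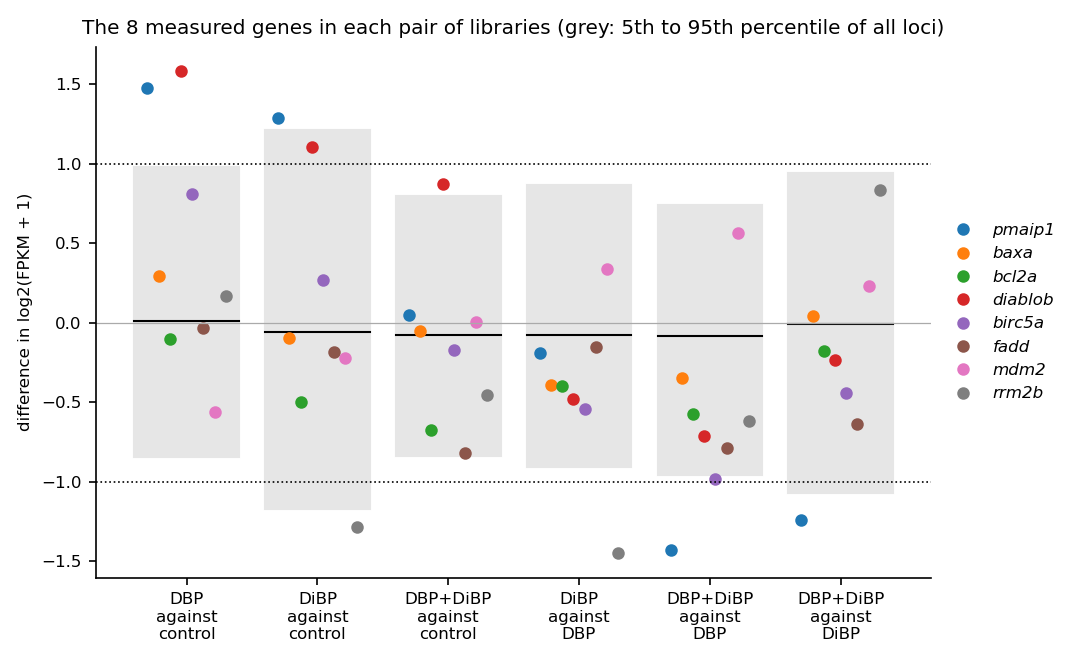
Points give the difference in log2(FPKM + 1) of the 8 measured genes in each of the 6 pairs of libraries; the grey box spans the 5th to the 95th percentile of all 13859 loci, the black line is their median, and dotted lines mark 2-fold. With DBP, pmaip1 and diablob lie above the box, and with DiBP pmaip1 lies above it and rrm2b, at -1.28, below it.

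Among mitochondrial death signals, diablob had the highest ratio of the measured loci in each exposed library. It encodes a Smac protein, which binds inhibitor of apoptosis proteins and frees caspases from them. Its level was 18.6 FPKM in the control, 57.5 with DBP, 41.0 with DiBP and 34.7 with both. All 3 exposed libraries were above the control, DBP most, and the combined library least. The log2 ratios were 1.58, 1.104 and 0.87, and 1.90%, 6.003% and 4.42% of all measured loci had a higher ratio in these libraries. With the libraries scaled to the same summed FPKM the DiBP ratio was 0.99, just short of 2-fold.

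Its paralog diabloa was at 5.99 FPKM in the control, 7.36 with DBP, 6.56 with DiBP and 5.62 with both. Every exposed library was within 1.5-fold of the control for diabloa, with log2 ratios of 0.26, 0.11 and -0.08. AIFM1, a mitochondrial flavoprotein that can move to the nucleus during cell death, was at 32.3 FPKM in the control, 20.6 with DBP, 15.3 with DiBP and 35.2 with both. The log2 ratios of AIFM1 were -0.62, -1.02 and 0.12, so it was low where diablob was highest. The gene cycsb, which encodes cytochrome c, was at 73.9, 91.8, 108 and 85.4 FPKM, within 1.5-fold in every library. The list of mitochondrial death signals held 8 measured loci, 3 of them of HTRA2, a symbol that 11 rows carry, and its median log2 ratio was 0.07 with DBP, -0.07 with DiBP and 0.01 with both.

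The gene birc5a encodes survivin, an inhibitor of apoptosis protein that also works in the chromosomal passenger complex of dividing cells. It was at 49.5 FPKM in the control, 87.6 with DBP, 59.8 with DiBP and 43.8 with both. The DBP library was high and the other exposed libraries were near the control, with log2 ratios of 0.81, 0.27 and -0.17. The combined library lay below the DBP library by -0.98, just short of 2-fold.

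The paralog birc5b was more abundant in every library, at 261 FPKM in the control, 414 with DBP, 515 with DiBP and 264 with both. It differed from birc5a in being highest with DiBP, with log2 ratios of 0.66, 0.98 and 0.02. Of the other inhibitors, BIRC2 was at 17.6, 21.2, 31.6 and 13.3 FPKM in the same order, and xiap at 16.4, 20.4, 13.3 and 11.8. BIRC6, a very large member of the family, was at 2.31 FPKM in the control, 1.46 with DBP, 0.824 with DiBP and 2.65 with both, with a log2 ratio of -0.86 with DiBP. Of 5 measured inhibitor loci, 4 were at least 1.5-fold lower in the combined than in the DBP library, where 13.4% of all loci were. The fifth, BIRC6, was higher, by 0.57. BIRC2 and birc5b, at -0.64 each, were close to the limit, a log2 ratio of 0.585 in size. Their calls were not recomputed under other scalings, and rrm2b, at -0.62 in this comparison, lost its call under both.

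The ratio of diablob to birc5a in FPKM was 0.375 in the control, 0.657 with DBP, 0.686 with DiBP and 0.792 with both. Thus birc5a exceeded diablob in all 4 libraries. The ratio leaves out diabloa and the more abundant survivin paralog birc5b, which was highest with DiBP, so its order holds for this pair only.

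Partners of survivin in the passenger complex differed less than birc5a with DBP. AURKB, its kinase, was at 485 FPKM in the control, 468 with DBP, 489 with DiBP and 415 with both. The borealin gene cdca8 was at 82.1, 123, 113 and 70.5 FPKM, with log2 ratios of 0.58, 0.46 and -0.22. TTK, a kinase of the spindle checkpoint, was at 27.8, 20.8, 16.1 and 29.0 FPKM, with -0.75 with DiBP. Over 12 loci of this complex and of mitosis the median log2 ratio was 0.37 with DBP, 0.13 with DiBP and -0.02 with both. Of these, 4 were at least 1.5-fold higher with DBP and 0 lower, where 12.2% and 10.4% of all loci were. The list includes birc5a and birc5b, which are 2 of the 4. None of the 12 was past 2-fold in any exposed library against control.

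**Figure D3:**
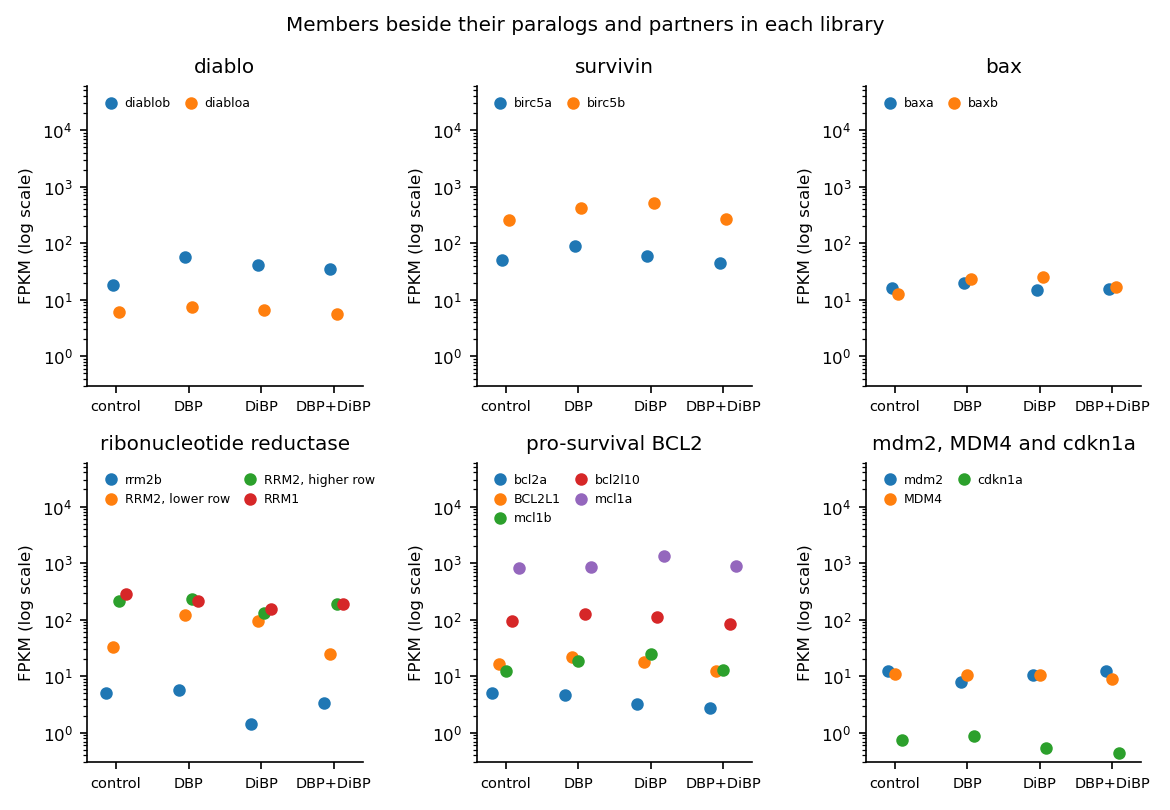
Points give FPKM on a log axis in each of the 4 libraries (DBP+DiBP is the combined one) for members and for their paralogs or partners, 1 library per point and group. In the panel of ribonucleotide reductase, rrm2b is lowest with DiBP at 1.46 FPKM, while the less abundant RRM2 row is at 120 with DBP and 95.1 with DiBP against 32.8 in the control.

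The adaptor gene fadd, whose protein couples death receptors to the initiator caspase-8, was at 8.59 FPKM in the control, 8.38 with DBP, 7.43 with DiBP and 4.42 with both. The combined library was low and the other 3 lay close together. Its log2 ratio was -0.82 with both compounds, where 5.27% of all measured loci had a lower ratio, against -0.03 with DBP and -0.19 with DiBP. The combined library was lower than the DBP library by -0.79 and than the DiBP library by -0.64, so fadd was at least 1.5-fold lower there than in each of the other 3. With equal summed FPKM the difference from the DiBP library was -0.50, short of 1.5-fold.

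Of 15 loci of death receptors and adaptors, 6 were measured. Among them fadd had the log2 ratio to control of the largest size, -0.82 with both compounds. That ranking holds on FPKM + 1, which understates low genes such as traf2b. The receptor gene tnfrsf1b was at 2.13 FPKM in the control, 3.10 with DBP, 3.32 with DiBP and 1.36 with both. The adaptor gene traf2b was at 1.18, 2.63, 0.974 and 1.47 FPKM, with a log2 ratio of 0.74 with DBP. The death receptor gene fas was listed at 0 in the control and DBP libraries and stayed under 0.1 FPKM in the others, and its ligand gene faslg was under 0.1 FPKM throughout. The median log2 ratio of the 6 was 0.33 with DBP, 0.01 with DiBP and -0.26 with both.

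The caspases, which carry out the killing, differed little. None of 6 measured loci of caspases and the apoptosome was 2-fold from control in any exposed library, and with DBP and with both none was 1.5-fold away. The gene casp8 was at 10.3 FPKM in the control, 11.6 with DBP, 13.0 with DiBP and 9.73 with both. APAF1, the scaffold on which caspase-9 is activated, was at 7.62, 6.30, 4.55 and 7.39 FPKM, with a log2 ratio of -0.64 with DiBP.

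The gene mdm2, both a target of p53 and the ligase that marks p53 for destruction, was at 12.3 FPKM in the control, 8.01 with DBP, 10.4 with DiBP and 12.3 with both. The DBP library was the lowest and the combined library nearly equalled the control. The log2 ratios were -0.56, -0.23 and 0.0025, so mdm2 was not high in the libraries where pmaip1 was. Its partner MDM4 was at 10.98, 10.5, 10.7 and 9.10 FPKM.

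The gene cdkn1a, a classic p53 target that stops the cell cycle, was at 0.753, 0.872, 0.540 and 0.445 FPKM, below the limit for a measured locus. RNA levels do not show the amount or activity of the p53 protein.

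Of 13 loci listed as p53 relatives and regulators, 11 were measured, all of them regulators. The relatives TP63 and TP73 averaged 0.984 and 0.135 FPKM, below the limit for a measured locus. None of the 11 measured regulator loci was 2-fold from control with DBP or with both compounds. Of all loci, 4.81% were higher and 3.31% lower with DBP, and 3.48% and 3.23% with both. With DiBP 0 of the 11 were 2-fold higher and 1, or 9.09%, was lower, where 7.25% and 7.04% of all loci were. The lower locus was ATR, a kinase that senses stalled DNA replication. It was at 4.43 FPKM in the control, 3.03 with DBP, 1.23 with DiBP and 4.56 with both. RCHY1, another ligase for p53, was at 70.0, 104, 126 and 88.4 FPKM, and USP7, which removes ubiquitin from Mdm2 and p53, at 4.58, 7.67, 5.54 and 3.97 FPKM.

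The gene rrm2b encodes a small subunit of ribonucleotide reductase, which in mammals is induced by p53 and supplies nucleotides for DNA repair. It was at 4.99 FPKM in the control, 5.73 with DBP, 1.46 with DiBP and 3.38 with both. The DiBP library was low, the combined library lay between, and the DBP library was slightly above the control. The log2 ratios were 0.17, -1.28 and -0.45. With DiBP 3.82% of all measured loci had a lower ratio. The highest library was 3.93 times the lowest, the widest range of the 8 measured genes.

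Among the other subunits, one row shared the order of rrm2b and the others did not. Of the 2 rows named RRM2, the main small subunit of dividing cells, ENSDARG00000078069 was at 32.8 FPKM in the control, 120 with DBP, 95.1 with DiBP and 25.01 with both. Its log2 ratios were 1.84, 1.51 and -0.38, high in the same libraries as pmaip1. The more abundant row, ENSDARG00000020711, was at 212, 236, 129 and 187 FPKM, in the same order of libraries as rrm2b. The large subunit gene RRM1 was at 283, 214, 152 and 189 FPKM, with log2 ratios of -0.40, -0.89 and -0.58. RefSeq lists rrm2 among the other names of rrm2b, so which row carries which small subunit rests on the table of symbols.

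The p53 targets did not move as a block. Of 30 target loci, 18 were measured. Of these 18, 3 were at least 2-fold higher with DBP, which were pmaip1, tp53i13 and a row of GADD45A. With DiBP 2 were 2-fold higher, pmaip1 and a row of GADD45B, and 1 was lower, rrm2b. With both compounds 1 was lower, the same row of GADD45A. These are 16.7% of the 18 higher with DBP, 11.1% higher and 5.56% lower with DiBP, and 5.56% lower with both, where 4.81%, 7.25%, 7.04% and 3.23% of all loci were. The symbols GADD45A and GADD45B are each carried by 2 rows, and their loci were named after their values were seen. At 1.5-fold with DBP 5 of the 18 were higher and 1 lower, or 27.8% and 5.56%, where 12.2% and 10.4% of all loci were. With DiBP 4 were higher and 3 lower, or 22.2% and 16.7%, against 15.7% and 18.1%. With both 1 was higher and 1 lower, or 5.56% each, against 7.78% and 10%. The median of the 18 was 0.13 with DBP, 0.22 with DiBP and -0.11 with both, against 0.01, -0.06 and -0.08 over all loci.

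GADD45A, a growth-arrest gene, was at 6.10 FPKM in the control, 17.2 with DBP, 3.38 with DiBP and 2.49 with both in this row. The row of GADD45B was at 2.07, 4.85, 8.32 and 3.58 FPKM. The gene tp53i13 was at 1.63, 4.63, 2.78 and 3.21 FPKM, with log2 ratios of 1.099, 0.52 and 0.68. Between the single-exposure libraries, 2 of the 18 target loci were at least 2-fold lower with DiBP, this row of GADD45A and rrm2b. In the same comparison 1 was higher, the other row of GADD45B. These are 11.1% lower and 5.56% higher, where 4.24% and 3.98% of all loci were.

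**Figure D4:**
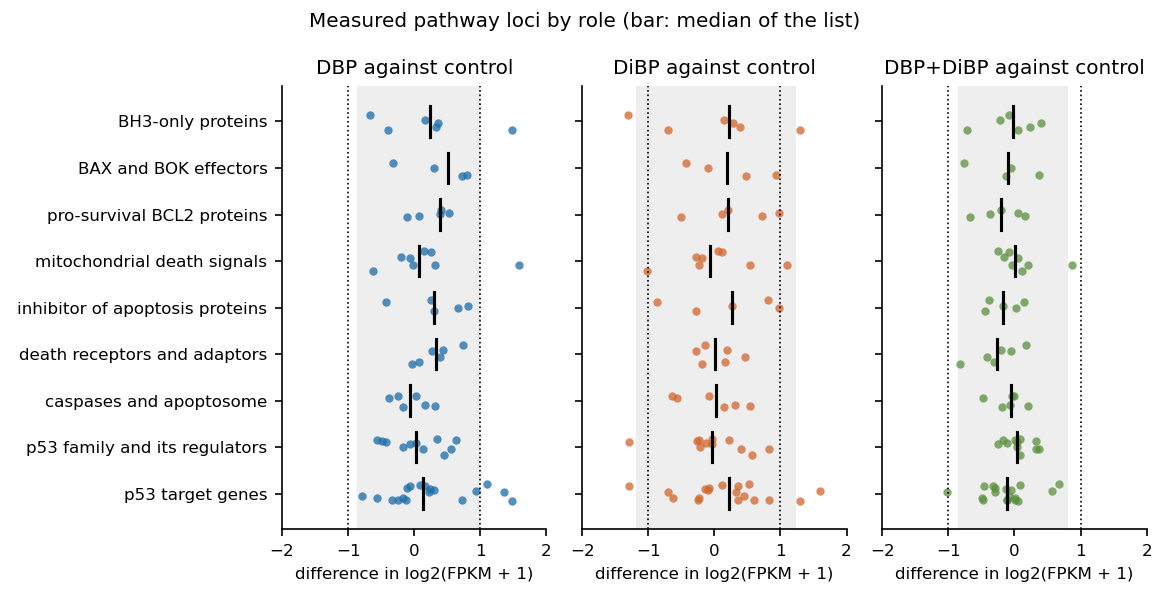
Each point is a measured pathway locus, placed by its difference in log2(FPKM + 1) from control in the DBP, DiBP or combined (DBP+DiBP) library, and rows group the loci by role; black bars are list medians, the grey band spans the 5th to the 95th percentile of all loci, and dotted lines mark 2-fold. Most loci lie inside the band in each library, and the combined library has 1 pathway locus past 2-fold, the row of GADD45A.

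Across the wider pathway, 96 of 100 listed genes were found and 65 loci were measured. With DBP 4 of the 65 were at least 2-fold higher and 0 lower, with a median log2 ratio of 0.16. The 4 were pmaip1, diablob, tp53i13 and the row of GADD45A. With DiBP 3 were higher, pmaip1, diablob and the row of GADD45B, and 4 lower, rrm2b, bmf1, AIFM1 and ATR. The list median was 0.11 there, against -0.06 over all loci. With equal summed FPKM these medians became -0.00041 and -0.16. With both 0 were higher and 1 lower, with a median of -0.08, equal to that of all loci. The 2-fold shares of the list were 6.15% higher with DBP, 4.62% higher and 6.15% lower with DiBP, and 1.54% lower with both, near or below the 4.81%, 7.25%, 7.04% and 3.23% of all loci. At 1.5-fold with DBP, 12 of the 65 were higher and 3 lower, or 18.5% and 4.62% of the list, beside the 12.2% and 10.4% of all loci given above. With DiBP 11 were higher and 9 lower, or 16.9% and 13.8% against 15.7% and 18.1%, and with both 2 were higher and 5 lower, or 3.08% and 7.69% against 7.78% and 10%. The members are part of this list, and it was written with results of these libraries known.

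The isomers were compared at the same 30 days, but whether their doses matched is not known, so the values are only set side by side. Of the 8 measured genes, rrm2b was 2-fold lower with DiBP than with DBP, by -1.45, where 4.24% of all loci were 2-fold lower and 3.98% higher. The other 7 were within 1.5-fold between the isomers, a limit that 20.4% of all loci passed, and without replicates no interval can be put on these differences. The log2 ratio of DiBP to DBP was -0.19 for pmaip1, -0.48 for diablob, -0.54 for birc5a, -0.39 for baxa, -0.40 for bcl2a, -0.15 for fadd and 0.33 for mdm2. Thus 7 of the 8 lay lower with DiBP, as did most of all loci, whose median was -0.08. The median of the 8 was -0.39, and the 25th percentile of all loci was -0.32.

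The combined library was set beside each single exposure in turn. Against DBP, 5 of 8 genes were at least 1.5-fold lower, where 13.4% of all loci were: pmaip1, diablob, birc5a, fadd and rrm2b. The call of rrm2b was lost under both scalings, at -0.53 and -0.54, where mdm2 became 1.5-fold higher, at 0.67 and 0.65. The median of the 8 was -0.67, against -0.09 over all loci. Of these, pmaip1 passed 2-fold, where 4.54% of all loci were lower and 2.76% higher. Against DiBP, pmaip1 was 2-fold lower, where 5.97% of all loci were lower and 4.41% higher. There pmaip1 and fadd were at least 1.5-fold lower, where 15.4% of all loci were, and rrm2b was higher by 0.83, where 12.6% of all loci were at least 1.5-fold higher. The comparisons of one library with several others share that library and are not independent.

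Genes with the most similar course over the 4 libraries were looked up among 5733 named loci averaging 5 FPKM or more. Likeness was the Euclidean distance between log2 values of FPKM + 1 centred on their mean. That scale understates the courses of bcl2a and rrm2b, which averaged 3.95 and 3.89 FPKM. With 4 values per gene, close courses are easily found. For pmaip1 the nearest were UQCRH, at a distance of 0.24, and NCBP2L, at 0.27. For diablob they were KRI1 at 0.25 and HDAC11 at 0.28, and for birc5a exosc3 at 0.07 and HPSE at 0.10. The nearest to bcl2a were EIF4EBP2 and MRPS18A, to fadd DFFB and SDR39U1, to rrm2b EXTL2 and TRIT1, to mdm2 SNX29 and USP38, and to baxa aldh3a2a and STARD3NL. UQCRH was at 76.7, 186, 196 and 84.6 FPKM in that order, as pmaip1 high in both single exposures and near the control in the combined library.

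Markers of the cells an ovary holds also differed between the libraries. Of 17 oocyte loci, 16 were measured, and their summed level was 8508 FPKM in the control, 9731 with DBP, 9359 with DiBP and 6585 with both. Their median log2 ratio was 0.20 with DBP, 0.09 with DiBP and -0.42 with both, against 0.01, -0.06 and -0.08 over all loci. At 2-fold, 4 were higher and 0 lower with DBP, 1 higher and 2 lower with DiBP, and 0 higher and 1 lower with both. Of all loci, 4.81% were higher and 3.31% lower with DBP, 7.25% and 7.04% with DiBP, and 3.48% and 3.23% with both. The oocyte genes did not share a course: h1m, the linker histone of the oocyte, was at 531, 1453, 1889 and 427 FPKM, whereas zpax4, an egg-coat gene, was at 963, 684, 480 and 658. The growth factor genes GDF9, at 26.2, 23.0, 19.3 and 22.9 FPKM, and bmp15, at 106, 94.9, 75.5 and 78.1, were also below the control in each exposed library. Between control and DiBP, h1m rose by more than the oocyte sum did, so the other oocyte loci summed lower with DiBP than in the control. The gene zp3b was listed at 0 in every library, and NANOS3 at 0 in the DiBP and combined libraries. Of 12 loci of granulosa and theca cells, 4 were measured, and the sum over the 12 was 27.4, 48.8, 50.8 and 37.7 FPKM, with FSHR, inha, hsd3b1 and a FOXL2 row listed at 0 in the control and that row also with DiBP.

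Summed low-level markers of other cells were higher in the single-exposure libraries, though not every marker was. Over 9 leukocyte loci, 3 of them measured, the sum was 4.05 FPKM in the control, 10.8 with DBP, 9.64 with DiBP and 6.23 with both, with mhc2dab at 0 with DBP and lyz highest in the combined library, at 2.64 FPKM against 0.922 in the control. Over 11 loci of smooth muscle and vessels, 4 measured, it was 10.02, 43.2, 18.2 and 11.2 FPKM, of which 1 row of TAGLN gave 5.47, 33.5, 10.1 and 6.79. The vessel gene kdrl was below the control in every exposed library, and lowest with DiBP, at 1.29, 0.498, 0.167 and 0.588 FPKM. FLI1 and a CLDN5 row were at 0 in the control, and the same CLDN5 row also with DiBP and with both. No red blood cell or liver marker was measured, although the liver sum was highest in the combined library, at 5.05 FPKM against 0.528 in the control. Genes of cytosolic ribosomal proteins, which have short transcripts, had a median log2 ratio over 68 loci of 0.29 with DBP, 0.43 with DiBP and -0.26 with both. The granulosa, leukocyte and smooth muscle sums and the ribosomal median were thus higher in both single-exposure libraries than in the control and combined libraries. The oocyte sum was too, with DiBP only through h1m. It also held for pmaip1, diablob, birc5a, birc5b and the less abundant RRM2 row, among other genes. Single markers named above went the other way. The part of these markers and of the ribosomal genes in those results was not tested.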

How the data were processed

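Ovarian RNA was extracted with an RNeasy kit and paired-end sequenced on a HiSeq X instrument after NEBNext Ultra library preparation, per the labels' protocols. HISAT2, HTSeq 0.6.1 and the build GRCz10 appear in the submitters' processing notes, without order or settings. The sources used here give neither the annotation nor the use of strand, so overlapping genes cannot be told apart. The deposited values, 1 table per library, are taken to be FPKM: no header names the unit, and it was read from the values. Depth is unknown.

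The tables hold 49610 rows. Symbols from a table of identifiers matched 26996 of 35066 Ensembl rows. Rows above 0 with identical values were collapsed, leaving 35253 loci, of which 13859 averaged 1 FPKM or more. No member shared its values with another row. Log2 ratios used a pseudocount of 1 and no further scaling. In pathway lists a final paralog letter was dropped where the full symbol has no row.

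All members were named. From each role list, up to 3 measured genes with the largest ratio to control and a symbol on 1 row were named, besides cdkn1a, paralogs and partners. For 1 further gene of this rule no result is reported here, and it was left out of the pathway lists. Members and lists were chosen with earlier results of these data known. The ribosomal protein genes were added after the values were seen. With 1 library per group no test was made. Code was tested on simulated data. Alternatives were the pseudocount, the filter, the fold limit, exact symbols and 2 scalings. Python 3.11.15, numpy 2.4.6, pandas 2.3.3 and matplotlib 3.10.9 were used.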

Additional observations from a re-analysis of the deposited data

Results flagged for a closer look

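The gene rrm2b was on opposite sides of the control in the single-exposure libraries, with log2 ratios of 0.17 with DBP and -1.28 with DiBP, and a log2 ratio of DiBP to DBP of -1.45. Each group has 1 library, and the difference was not tested.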

How the results depend on the processing

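No paired analysis was possible because each group has 1 library. The differences have no replicates and depth is unknown, so low genes such as bbc3 and rrm2b cannot be given a counting error. Of 144 recomputed ratios of the measured members (pseudocount 0.1, equal summed FPKM, or median-of-ratios scaling), 142 kept their side of the 2-fold limit and none with a 2-fold difference changed sign. The exceptions were diablob with DiBP against control, at 0.99 with equal summed FPKM, which left 1 member higher there, and rrm2b in the combined against the DiBP library, at 1.16 with a pseudocount of 0.1, which made 1 member higher. At 1.5-fold 132 kept their side of the limit. The other 12 concern mdm2 with DBP against control and combined against DBP in all 3 settings, bcl2a with DiBP against control (pseudocount and equal sums, -0.61 and -0.60) and combined against DBP (pseudocount, -0.72), rrm2b combined against DBP (both scalings) and fadd combined against DiBP (equal sums). At a mean of 5 FPKM rrm2b dropped out, leaving 0 members lower with DiBP against control and against DBP. With a limit of 1.5-fold, the combined library had 1 member higher and 2 lower than the control, 5 lower than DBP, and 1 higher and 2 lower than DiBP.

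The share of all loci past the limit, in the order DBP, DiBP and combined against control, DiBP against DBP, and combined against DBP and against DiBP, moved by over 1.5 times in these settings. Without a filter it was 4.12%, 7.14%, 3.43%, 4.48%, 3.76% and 5.37%, and at 1.5-fold 22.7%, 33.8%, 17.8%, 20.4%, 21.0% and 28.1%. With a pseudocount of 0.1 it was 13.6%, 12.2%, 13.0%, 12.5% and 16.8%, leaving out DiBP against control, and at 5 FPKM 4.38% for combined against control and 5.45% for DiBP against DBP. Equal summed FPKM shifted the median of all loci from -0.06 to -0.16 for DiBP against control and from -0.01 to 0.12 for combined against DiBP. There the share of higher among 2-fold loci went from 42.5% to 56.4%. The median of the pathway list became -0.00041 for DiBP against control and -0.072 for combined against DiBP in that scaling, and -0.33 for the last at 5 FPKM. The causes were not tested.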
